A study of Macaca mulatta with 34 samples.

Results

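The comparison described here set the response to AAV.miS1 against the response to StufferOnly in the injected deep cerebellar nuclei of rhesus macaques. The AAV.miS1 effect was the log2 change of AAV.miS1 over vehicle within Study 1, the StufferOnly effect was the log2 change of StufferOnly over empty capsid within Study 2, and the difference was the AAV.miS1 effect minus the StufferOnly effect. It used 16 of the 34 libraries of the series, out of 22 total RNA libraries from the nuclei, and was made on the 34847 gene identifiers common to all 16. Study 1 looked for the cause of toxicity after AAV.miS1, and Study 2 described immune responses to other constructs.

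The libraries fell into 4 groups, each library from an animal with its own identifier in the labels. AAV.miS1 (n = 6) is an adeno-associated virus (AAV) vector whose cargo gives an artificial microRNA against ATXN1, the gene expanded in spinocerebellar ataxia type 1, and its reference was vehicle, an injection without capsid (n = 4). StufferOnly (n = 3) is a capsid with stuffer cargo for which the labels name no microRNA, and its reference was the empty capsid (n = 3). Every animal had an MRI-guided injection into the nuclei. Capsid exposure is therefore part of the AAV.miS1 effect and is cancelled in the StufferOnly effect, and that contribution cannot be told apart from the study, the counting program or the vector. The sources used here give neither dose nor time after injection, so it is not known whether they were matched.

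The deep nuclei hold the large projection neurons that carry the output of the cerebellum, and they receive the axons of Purkinje cells of the cortex. The brain meets a vector genome or a damaged cell first with microglia and astrocytes, then with macrophages and lymphocytes that enter from blood. Interferons switch on antiviral and antigen-presentation genes in all of these cells, while phagocytes that take up myelin switch on lysosomal and lipid-handling genes.

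Assigned gene counts were 2049685 to 4810852 per Study 1 library, except 87741 in vehicle replicate 2, and 22183232 to 39792653 per Study 2 library. On the first principal component of the 16 libraries, which held 47.5% of the variance, vehicle replicate 2 lay far from every other library. Vector reads were taken from 1 feature named for a miS1 construct, in all groups, and reads of a separate stuffer feature were not included. In RPM relative to the assigned gene counts, they were lowest 23.1, median 68.2 and highest 586 in AAV.miS1 libraries, against 0.336, 3.78 and 11.4 in vehicle libraries. The highest vehicle value was 1 read in vehicle replicate 2, with a Poisson 95% interval of 0.289 to 63.5 RPM. They were lowest 248, median 350 and highest 625 in StufferOnly libraries, against 0.151, 0.191 and 0.281 in empty capsid libraries. All vector libraries lay above their own controls, and since the vector was counted differently in each study its level cannot be compared between studies. Markers of neurons were present in the tissue: the 29 general neuron genes tested summed to 4823 to 8987 CPM, counts scaled to the size of each library, in vehicle libraries and 7127 to 8025 CPM in empty capsid libraries.

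ATXN1, the transcript that the AAV.miS1 microRNA is directed at, was lower after AAV.miS1 and did not pass the test after StufferOnly. It was lowest 49.6, median 56.9 and highest 88.4 CPM in AAV.miS1 libraries, against 95.3, 96.1, 90.7 and 90.3 CPM in vehicle libraries. The AAV.miS1 libraries all lay below the vehicle libraries, with replicate 1 nearest to them. ATXN1 was 53.3, 51.4 and 54.6 CPM in StufferOnly libraries, against 47.5, 56.2 and 60.8 CPM in empty capsid libraries, so those groups overlapped. The AAV.miS1 effect was −0.60 log2 (SE 0.15, edgeR quasi-likelihood adjusted p = 0.0144; two-sided exact permutation p = 0.0143, smallest possible 0.00476), and the StufferOnly effect −0.05 (SE 0.18, adjusted p = 0.880; exact permutation p = 0.70, smallest possible 0.10). The difference was −0.55 with a 95% interval of −1.06 to −0.04, and it was not called over all genes (adjusted p = 1.0). ATXN7, the target of another construct of the series that was given to none of these animals, had effects of 0.22 (SE 0.15, adjusted p = 0.30) and 0.36 (SE 0.18, adjusted p = 0.209) and an interval of the difference of −0.64 to 0.36.

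In the edgeR fit of the 16 libraries, to which the word called refers unless another fit is named, most genes called higher after StufferOnly were also called higher after AAV.miS1. Of 13375 genes tested, AAV.miS1 raised 2159 (16.1%) and lowered 387 (2.89%), and StufferOnly raised 1483 (11.1%) and lowered 122 (0.912%), each at an edgeR adjusted p under 0.05. Called in the same direction in both were 1294 genes, 1253 of them higher (9.37% of all tested) and 41 lower (0.307%). These made up 50.8% of the AAV.miS1 calls and 80.6% of the StufferOnly calls. Among higher calls the shared part was 58.0% of the AAV.miS1 list and 84.5% of the StufferOnly list, and among lower calls 10.6% and 33.6%. PTER was the 1 gene called in opposite directions, and its counts are described with the other genes that differed most.

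Shared genes were chosen by their calls in both effects, so their medians lie on the same side of 0 by that choice. Shared higher genes had a median AAV.miS1 effect of 2.19 and a median StufferOnly effect of 2.06, and shared lower genes medians of −0.68 and −0.88. Over all genes tested the medians were 0.03 for the AAV.miS1 effect, 0.02 for the StufferOnly effect and 0.03 for the difference, and the effects had a Pearson r of 0.890 and a Spearman rho of 0.846. That correlation is across genes of the same 16 libraries, and genes are not independent replicates. The difference of the effects was called for 3 genes (0.0224%), all below 0, while 296 had an unadjusted p under 0.05, 142 above 0 and 154 below. DESeq2 called 12 differences, limma voom 6, separate edgeR fits per study 23, and a fit with only the Study 1 libraries over 15% unmapped reads 183.

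The overlap and the balance of higher and lower calls depended on the fit. Shared higher genes numbered 1498 of 1823 StufferOnly higher calls with DESeq2 and 2295 of 3833 with limma voom. They were 933 of 3166 with separate fits per study, 751 of 2097 with the share of unmapped reads as a covariate and 120 of 2803 with only the Study 1 libraries over 15% unmapped. AAV.miS1 higher calls were 970, 830 and 126 in those fits, each fewer than the StufferOnly higher calls. The Study 1 libraries over 15% unmapped were AAV.miS1 replicates 5 and 6 and vehicle replicates 2, 3 and 4. List counts given further on are from the edgeR fit of the 16 libraries alone. Study 1 had 6 and 4 libraries and Study 2 had 3 and 3, so numbers of calls after each vector do not compare effect sizes. Shared lower genes numbered 205 with DESeq2, 1428 with limma voom and 25 with separate fits, and StufferOnly lower calls 542, 3147 and 2303.

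**Figure D1:**
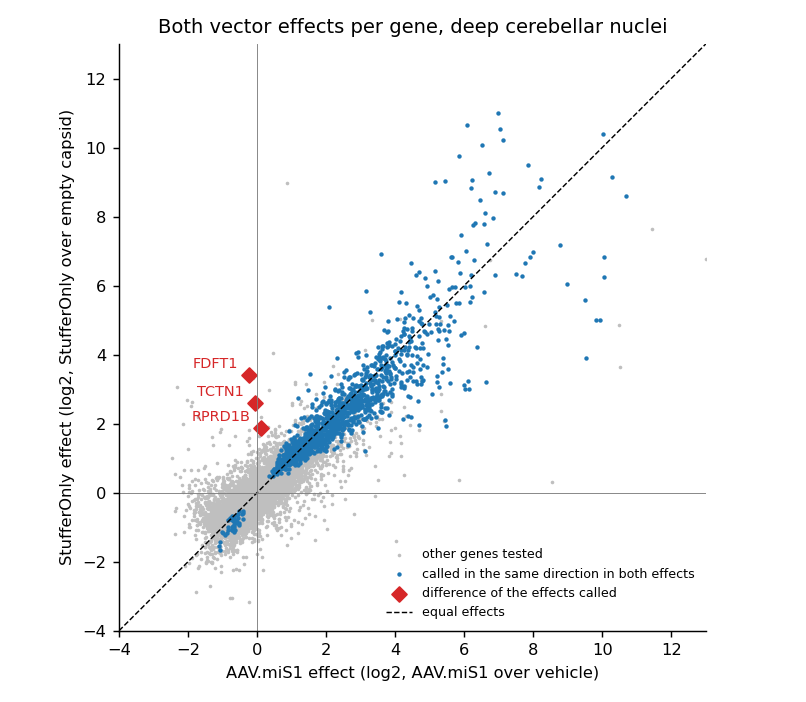
Each of the 13375 points is a gene tested, with the AAV.miS1 effect (log2, AAV.miS1 over vehicle) on the horizontal axis and the StufferOnly effect (log2, StufferOnly over empty capsid) on the vertical axis; fitted values of genes without counts in a group depend on the fit's prior count. Blue points are the 1294 genes called in the same direction in both effects, and the 3 red diamonds are the called differences FDFT1, RPRD1B and TCTN1, which lie near 0 horizontally and well above 0 vertically.

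The plot of both effects per gene shows the shared genes along the line of equal effects and the 3 called differences away from it. The 95% interval of the difference lay within 1 log2 unit of 0 on both sides for 212 of the 1294 shared genes and for 6020 of all genes, and its median half-width was 1.35 log2 for shared genes and 0.826 for all genes. Calls made after 1 vector but not the other, 1251 for AAV.miS1 and 310 for StufferOnly, had the same sign after the other vector in 1210 and 300 genes.

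The counts of calls moved with single libraries. AAV.miS1 calls were 1617 without AAV.miS1 replicate 4, 4438 without AAV.miS1 replicate 5, and 1400, 1124 and 1481 without vehicle replicates 1, 3 and 4. StufferOnly calls were 2767 without AAV.miS1 replicate 1, 735 and 923 without StufferOnly replicates 2 and 3, and 456, 419 and 458 without empty capsid replicates 1, 2 and 3. Shared calls were 840 without AAV.miS1 replicate 4, 850, 757 and 816 without vehicle replicates 1, 3 and 4, 660 and 799 without StufferOnly replicates 2 and 3, and 412, 379 and 412 without the empty capsid replicates.

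The leading shared higher genes, ranked by the smaller of their effects, were MMP9, CDH1, PLA2G2D, SLAMF1, ACP5, CHIT1, ADAMDEC1, SLAMF7, JCHAIN, GPR174, CR1 and APOC1. MMP9 is a matrix-cutting protease, CHIT1 a chitinase and ACP5 an acid phosphatase of macrophages, SLAMF1 and SLAMF7 lymphocyte receptors, JCHAIN the joining chain of secreted antibody, CDH1 an adhesion molecule of epithelia, and CR1 a complement receptor. SLAMF1 and GPR174 had no read in any vehicle library and were at least 12.4-fold and 30.4-fold higher in AAV.miS1 libraries, with 3 counts over all vehicle libraries taken as the limit.

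APOC1, an apolipoprotein of lipid-laden macrophages, was lowest 34.2, median 310 and highest 879 CPM in AAV.miS1 libraries, against 1.67, 28.8, 5.24 and 3.28 CPM in vehicle libraries. It was 151, 483 and 338 CPM in StufferOnly libraries, against 3.75, 1.38 and 1.40 CPM in empty capsid libraries. No vector library reached down to its controls, although the 28.8 CPM of vehicle replicate 2 rest on 3 reads. The effects were 6.65 (SE 1.07, edgeR adjusted p = 0.00280) and 7.20 (SE 1.12, adjusted p = 0.00254), and the difference was −0.54 (−3.28 to 2.19).

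CHIT1 was lowest 142, median 1657 and highest 8708 CPM in AAV.miS1 libraries, against 7.11, 221, 17.6 and 3.94 CPM in vehicle libraries. It was 627, 3692 and 2246 CPM in StufferOnly libraries, against 1.58, 0.786 and 0.771 CPM in empty capsid libraries. Only the vehicle replicate 2 library, with 23 CHIT1 reads, lay inside the AAV.miS1 range, and the StufferOnly libraries lay above all their controls. The AAV.miS1 effect was 6.98 (SE 1.55, edgeR adjusted p = 0.00772) and the StufferOnly effect 11.00 (SE 1.98, adjusted p = 0.00424), and the interval of the difference ran from −8.09 to 0.05.

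Phagocyte and lysosome genes rose after both vectors. The shares called over all genes tested stand beside every list from here on. They were 16.1% higher and 2.89% lower after AAV.miS1, and 11.1% higher and 0.912% lower after StufferOnly. Of 26 phagocyte receptor and signalling genes tested, 24 rose after AAV.miS1 and 23 after StufferOnly, 23 of them shared (median effects 3.13 and 2.61). Of 25 genes of lipid-laden and activated macrophages, 21 and 18 rose, 18 shared (3.65 and 3.28), and of 31 lysosomal genes 22 and 18 rose, 17 shared (1.46 and 1.52). Of 13 homeostatic microglia genes 9 and 6 rose, 6 shared (1.43 and 1.14). Of 14 neutrophil markers in the files 2 could be tested, of which 2 rose after AAV.miS1 and 1 after StufferOnly. In these bulk samples more cells of a type and more RNA per cell cannot be told apart, and for the neuronal and glial lists given further on neither can fewer cells and less RNA per cell.

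CYBB, the catalytic subunit of the phagocyte oxidase, was lowest 32.1, median 324 and highest 1121 CPM in AAV.miS1 libraries, against 8.78, 28.8, 18.5 and 14.8 CPM in vehicle libraries. It was 297, 472 and 438 CPM in StufferOnly libraries, against 16.1, 15.7 and 18.0 CPM in empty capsid libraries. The groups did not overlap in either study, and the lowest AAV.miS1 library, replicate 5, was close to vehicle replicate 2. Replicate 5 was also the lowest AAV.miS1 library for APOC1, CHIT1, IFI30, B2M, VIM, OASL, IGHM, CDKN1A, TUT7 and CTSB. For CXCL9 the lowest was replicate 3, and for EGR3 and TNFRSF12A replicate 6. The low end of many of these ranges is therefore the same 1 animal. The effects were 4.93 (SE 0.87, edgeR adjusted p = 0.00305) and 4.60 (SE 0.93, adjusted p = 0.00657). Among lysosomal genes, GM2A, a cofactor of ganglioside breakdown, had effects of 4.26 and 4.60 (edgeR adjusted p = 0.00864 and 0.0138), and the cathepsin CTSH 3.72 and 3.81 (adjusted p = 0.00791 and 0.0138).

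Antigen presentation and complement genes also rose after both vectors. All 9 genes tested for presentation on MHC class II rose after AAV.miS1 and 8 after StufferOnly, with median effects of 4.34 and 3.50. For MHC class I and the immunoproteasome 15 and 9 of 17 rose, 9 shared (2.67 and 1.44), and for complement 17 and 14 of 21, 13 shared (2.91 and 2.61). IFI30, the lysosomal thiol reductase that unfolds antigens, was lowest 23.2, median 334 and highest 1156 CPM in AAV.miS1 libraries, against 6.69, 19.2, 7.72 and 4.27 CPM in vehicle libraries. It was 339, 754 and 510 CPM in StufferOnly libraries, against 7.37, 8.52 and 9.63 CPM in empty capsid libraries.

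The IFI30 groups did not overlap in either study, and the effects were 6.03 (SE 0.99, edgeR adjusted p = 0.00280) and 5.97 (SE 1.03, adjusted p = 0.00353). B2M, the light chain of MHC class I, was lowest 481, median 2234 and highest 7531 CPM in AAV.miS1 libraries, against 196, 317, 199 and 263 CPM in vehicle libraries. It was 1337, 3822 and 2797 CPM in StufferOnly libraries, against 226, 304 and 252 CPM in empty capsid libraries. All vector libraries lay above their controls. The B2M effects were 3.65 (SE 0.64, edgeR adjusted p = 0.00305) and 3.35 (SE 0.74, adjusted p = 0.0106), with a difference of 0.30 (−1.56 to 2.16).

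Interferon genes were called more often after AAV.miS1, but edgeR called no member's difference. Over all genes 16.1% were called higher after AAV.miS1 and 11.1% after StufferOnly, and separate fits per study reversed that order. Calls of this list are not given for those fits. Of 42 interferon-stimulated genes 37 rose after AAV.miS1 and 20 after StufferOnly, all 20 shared, with median effects of 2.27 and 1.60. The difference was above 0 for 41 of them, with a median of 0.67 beside 0.03 over all genes, and 2 had an unadjusted p under 0.05. The interferon-gamma list had 11 and 6 of 12 genes higher, 6 shared, with medians of 2.79, 1.82 and 0.92 for the difference. The AAV.miS1 effect includes the response to a capsid and the StufferOnly effect does not, and this cannot be told apart from the vector.

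OASL, an interferon-induced antiviral protein, was lowest 4.10, median 15.02 and highest 31.8 CPM in AAV.miS1 libraries, against 0.418, 0, 0.551 and 0.328 CPM in vehicle libraries. It was 6.199, 9.68 and 11.9 CPM in StufferOnly libraries, against 0.109, 0.196 and 0.771 CPM in empty capsid libraries. No vector library overlapped its controls, and the edgeR adjusted p was 0.00280 for AAV.miS1 and 0.00188 for StufferOnly. DDX60, an antiviral helicase, had effects of 3.02 (SE 0.50, edgeR adjusted p = 0.00282) and 3.07 (SE 0.51, adjusted p = 0.00314), and the interval of its difference was −1.46 to 1.36.

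Genes that sense nucleic acids or carry the signal onward rose with them. Sensing genes numbered 16 and 14 of 21 higher, 13 shared (medians 2.07 and 1.44), inflammasome and lytic death genes 12 and 9 of 14, 9 shared (2.03 and 1.61), and NF-kB feedback genes 12 and 9 of 15, 9 shared (1.51 and 1.22). Of 34 chemokines and cytokines in the files 17 could be tested, of which 15 and 13 rose, 13 shared (2.90 and 2.20). CXCL9, an interferon-gamma-induced chemokine that attracts T cells, was lowest 4.21, median 61.4 and highest 133 CPM in AAV.miS1 libraries, against 0, 0, 1.65 and 0 CPM in vehicle libraries. It was 4.62, 27.5 and 12.6 CPM in StufferOnly libraries, against 0, 0 and 0.140 CPM in empty capsid libraries (edgeR adjusted p = 0.00756 and 0.00599). STING1, the adaptor of cytosolic DNA sensing, had effects of 3.97 (SE 0.78, edgeR adjusted p = 0.00418) and 3.19 (SE 0.71, adjusted p = 0.0109).

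Many of the lymphocyte markers that could be tested rose after both vectors. Of 28 T cell markers in the files 17 could be tested, and 13 rose after each vector, 11 shared (medians 4.16 and 3.30). Of 16 cytotoxic markers 8 could be tested, and 7 and 8 rose, 7 shared (5.21 and 4.23). Of 23 B and plasma cell markers 12 could be tested, and 10 rose after each, 10 shared (3.33 and 3.99). A gene near 0 in the controls can pass the count filter through vector libraries alone. The parts of these lists that rose are therefore not independent of the filter. LCK, the T cell receptor kinase, had no read in vehicle libraries and was at least 25.8-fold higher in AAV.miS1 libraries. IGHM, the antibody mu chain, was lowest 18.8, median 644 and highest 3449 CPM in AAV.miS1 libraries, against 7.95, 135, 11.3 and 0 CPM in vehicle libraries. It was 360, 842 and 1163 CPM in StufferOnly libraries, against 0.761, 0.550 and 0.841 CPM in empty capsid libraries. Vehicle replicate 2 lay within the AAV.miS1 range and the StufferOnly libraries lay above all their controls, with effects of 6.51 (SE 1.65, edgeR adjusted p = 0.0142) and 10.08 (SE 2.004, adjusted p = 0.00635) and a difference of −3.56 (−7.88 to 0.75).

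**Figure D2:**
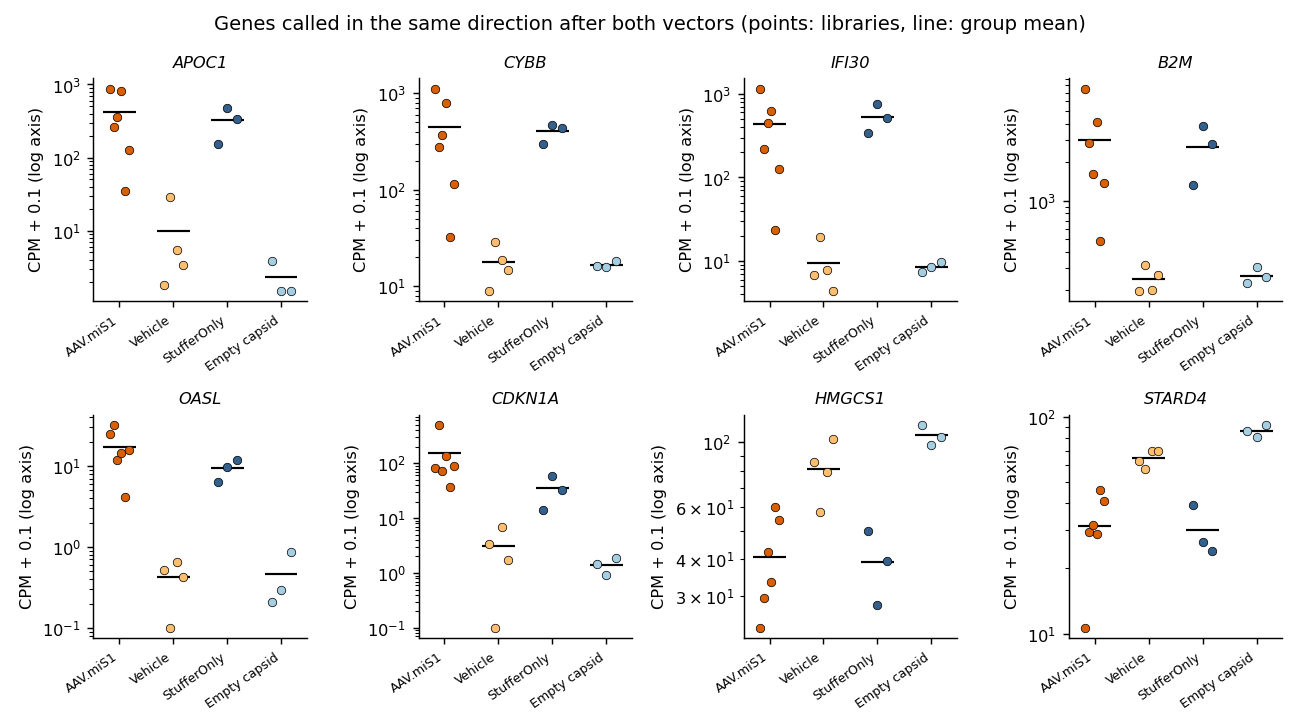
Each point is a library and each line a group mean, as CPM plus 0.1 on a log axis, for 8 genes called in the same direction after both vectors, with groups from left to right AAV.miS1, vehicle, StufferOnly and empty capsid. APOC1, CYBB, IFI30, B2M, OASL and CDKN1A lie higher in vector libraries than in their controls, and HMGCS1 and STARD4 lie lower.

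Stress-response genes were shared in part, as the plot of single genes by library shows for CDKN1A. Of 21 p53 targets 14 rose after AAV.miS1 and 7 after StufferOnly, 7 shared (medians 1.42 and 1.05), and of 21 immediate early genes 14 rose after each, 12 shared (1.73 and 1.91). CDKN1A, the p53-induced inhibitor of the cell cycle, was lowest 36.5, median 85.2 and highest 491 CPM in AAV.miS1 libraries, against 3.34, 0, 6.89 and 1.64 CPM in vehicle libraries. It was 14.2, 59.1 and 32.7 CPM in StufferOnly libraries, against 1.36, 0.825 and 1.75 CPM in empty capsid libraries. No vector library overlapped its controls, and the effects were 5.24 (SE 0.90, edgeR adjusted p = 0.00305) and 4.73 (SE 0.91, adjusted p = 0.00535).

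EGR3, an early response transcription factor, was lowest 18.1, median 29.3 and highest 51.6 CPM in AAV.miS1 libraries, against 0.836, 0, 0.551 and 1.31 CPM in vehicle libraries. It was 14.8, 15.99 and 16.5 CPM in StufferOnly libraries, against 1.22, 1.02 and 2.84 CPM in empty capsid libraries. All vector libraries lay well above their controls, the effects were 5.21 (SE 0.55, edgeR adjusted p = 0.000386) and 3.21 (SE 0.44, adjusted p = 0.00147), and the difference of 2.0 (0.48 to 3.51) was not called (adjusted p = 1.0). Unfolded protein and integrated stress genes rose in 9 and 5 of 22, 5 shared, among them PPP1R15A, which restarts protein synthesis after stress (effects 2.15 and 2.54, edgeR adjusted p = 0.00659 and 0.00572). Heat shock genes had 1 of 13 higher after AAV.miS1 and 1 lower after StufferOnly, and 18 cell division genes had 13 and 5 higher, 5 shared.

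Many genes of reactive astrocytes, matrix and leukocyte adhesion rose after both vectors. Reactive astrocyte genes rose in 12 and 11 of 17, 10 shared (medians 2.32 and 1.86), extracellular matrix genes in 17 and 11 of 28, 11 shared (1.87 and 1.54), leukocyte adhesion genes in 9 and 8 of 13, 8 shared (2.26 and 2.12), and iron and heme genes in 9 and 5 of 14, 5 shared (1.35 and 1.06). VIM, an intermediate filament of reactive astrocytes, was lowest 313, median 1856 and highest 4008 CPM in AAV.miS1 libraries, against 60.2, 135, 98.4 and 91.3 CPM in vehicle libraries. It was 687, 1278 and 937 CPM in StufferOnly libraries, against 59.6, 56.3 and 64.8 CPM in empty capsid libraries. No VIM library of a vector overlapped its controls (effects 4.34 and 4.01, SE 0.64 and 0.72, edgeR adjusted p = 0.00248 and 0.00424).

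CP, the copper oxidase ceruloplasmin that acts on iron export, had effects of 4.74 (SE 0.60, edgeR adjusted p = 0.00204) and 3.36 (SE 0.59, adjusted p = 0.00397), and its difference was 1.37 (−0.24 to 2.99). None of 20 homeostatic astrocyte genes was called in either effect, with medians of −0.76 and −0.97. Endothelial genes had 1 of 15 higher and 1 lower after AAV.miS1 and 2 higher after StufferOnly, and of 10 pericyte and smooth muscle genes 1 rose after AAV.miS1 and 1 fell after StufferOnly. Of 7 meningeal genes 1 rose after both, none of 3 choroid plexus and ependyma genes was called, and no red blood cell gene could be tested.

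The AAV.miS1 cargo uses the small RNA pathway of the cell. Of 19 genes of microRNA processing 4 rose after AAV.miS1 and 3 after StufferOnly, 3 of them shared, beside 16.1% and 11.1% of all genes. For 15 of the 19 the interval of the difference lay within 1 log2 unit of 0. TUT7, which adds uridines to small RNA precursors, was lowest 82.0, median 148 and highest 311 CPM in AAV.miS1 libraries, against 69.0, 9.61, 62.9 and 57.1 CPM in vehicle libraries. It was 132, 154 and 153 CPM in StufferOnly libraries, against 55.4, 53.8 and 58.4 CPM in empty capsid libraries, and the effects were 1.54 (SE 0.33, edgeR adjusted p = 0.00694) and 1.39 (SE 0.39, adjusted p = 0.0300).

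ATXN1 works with the repressor capicua. Of 13 genes of ATXN1, capicua and its targets, 1 rose and 3 fell after AAV.miS1, and 1 fell after StufferOnly, which was shared. The 3 that fell were ATXN1 itself, the target of the microRNA, SPRED1 and ETV1. Among all genes tested, 16.1% rose and 2.89% fell after AAV.miS1, and 0.912% fell after StufferOnly. SPRED1, an inhibitor of Ras signalling, fell in both, with effects of −0.40 (SE 0.13, edgeR adjusted p = 0.0391) and −0.75 (SE 0.15, adjusted p = 0.00715). ETV1, a transcription factor that capicua represses, was −1.39 after AAV.miS1 (edgeR adjusted p = 0.0401) and −0.29 after StufferOnly (adjusted p = 0.736), and DUSP6, a phosphatase that limits ERK signalling, was 1.43 (adjusted p = 0.0125) and 0.05 (adjusted p = 0.934). Neither difference was called, with intervals of −2.603 to 0.39 for ETV1 and 0.29 to 2.47 for DUSP6. ETV1 is also on the list of granule cell markers given further on, whose median effects were −1.50 after AAV.miS1 and 0.20 after StufferOnly.

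**Figure D3:**
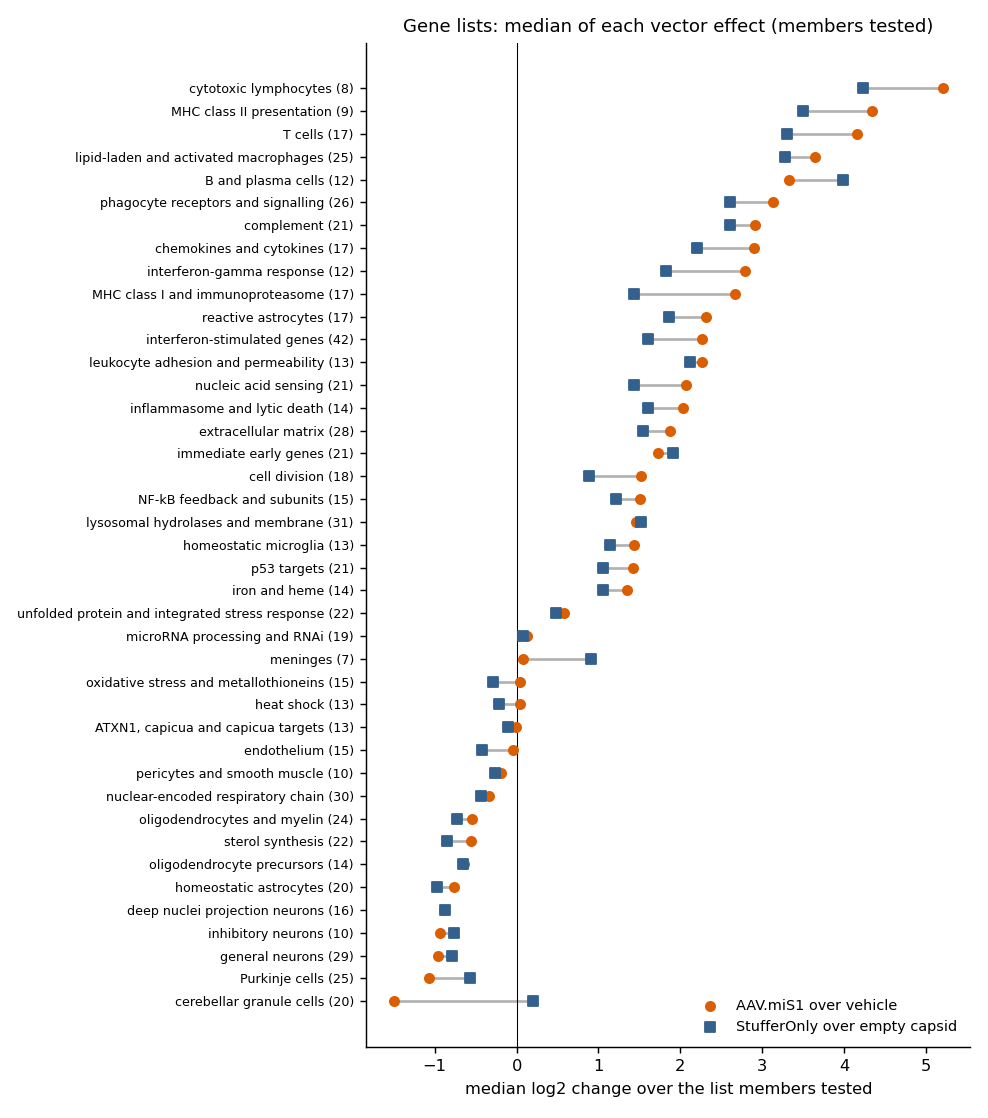
Each row is a gene list with its number of members tested in brackets, with orange circles for the median AAV.miS1 effect and blue squares for the median StufferOnly effect, in log2. Immune lists lie to the right of 0 in both effects, and cerebellar granule cells have medians on either side of 0, −1.50 after AAV.miS1 and 0.20 after StufferOnly.

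Fewer genes fell in both, and several of the leading ones make cholesterol or myelin. STARD4, a sterol carrier, HMGCS1, the enzyme that makes the precursor of mevalonate, the chemokine CXCL14, LIMS2, the lipid transporter ABCA8 and the myelin protein gene MOBP led the shared lower genes. HMGCS1 was lowest 23.2, median 37.7 and highest 60.1 CPM in AAV.miS1 libraries, against 85.7, 57.7, 79.4 and 102 CPM in vehicle libraries. It was 49.9, 27.8 and 39.4 CPM in StufferOnly libraries, against 114, 98.1 and 104 CPM in empty capsid libraries. Only vehicle replicate 2, with 6 HMGCS1 reads, lay within the AAV.miS1 range, and the effects were −1.08 (SE 0.25, edgeR adjusted p = 0.00941) and −1.43 (SE 0.31, adjusted p = 0.00905).

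Of 22 sterol synthesis genes 5 fell after AAV.miS1 and 7 after StufferOnly, 4 of them shared, with median effects of −0.56 and −0.85. Among the shared ones were HMGCS1, STARD4 and SREBF2, the main transcription factor of the pathway. SREBF2 had effects of −0.85 (edgeR adjusted p = 0.00694) and −0.78 (adjusted p = 0.0411). A further sterol gene, FDFT1, rose after StufferOnly, and its counts are taken up with the called differences.

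Myelin genes had medians below 0 after both vectors. Of 24 oligodendrocyte and myelin entries, which hold 2 identifiers for MOBP, 6 fell after AAV.miS1 and 4 after StufferOnly, 2 of them shared (medians −0.55 and −0.73), beside 2.89% and 0.912% of all genes called lower. The called MOBP identifier was lowest 128, median 436 and highest 565 CPM in AAV.miS1 libraries, against 712, 999, 632 and 727 CPM in vehicle libraries. It was 684, 714 and 785 CPM in StufferOnly libraries, against 1912, 1814 and 1407 CPM in empty capsid libraries. No vector library overlapped its controls (effects −0.93 and −1.23, SE 0.30 and 0.38, edgeR adjusted p = 0.0420 and 0.0484), and reads of the pair of MOBP identifiers may be split between them. Of 14 oligodendrocyte precursor genes 1 fell after each vector and none after both.

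The called differences were FDFT1, RPRD1B and TCTN1, all of which rose after StufferOnly and stayed near 0 after AAV.miS1. Each of them lies beside a strongly raised phagocyte gene on the RefSeq T2T-MMU8v2.0 annotation, which was used for neighbours alone. FDFT1, the squalene synthase of cholesterol synthesis, lies beside CTSB, a lysosomal cathepsin. RPRD1B, a binder of RNA polymerase II, lies beside TGM2, a transglutaminase, and TCTN1, a protein of the base of the cilium, beside HVCN1, a proton channel of phagocytes.

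FDFT1 was lowest 35.4, median 44.6 and highest 48.6 CPM in AAV.miS1 libraries, against 51.0, 48.0, 51.8 and 51.5 CPM in vehicle libraries. It was 1918, 4545 and 2739 CPM in StufferOnly libraries, against 301, 296 and 277 CPM in empty capsid libraries. FDFT1 thus lay far higher in StufferOnly and empty capsid libraries than in Study 1, with the empty capsid level 5.75 times the vehicle level. The AAV.miS1 effect was −0.23 (SE 0.20, edgeR adjusted p = 0.406), the StufferOnly effect 3.40 (SE 0.26, adjusted p = 1.34e-05) and the difference −3.63 (−4.30 to −2.96, adjusted p = 8.74e-05).

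CTSB was lowest 905, median 5694 and highest 13260 CPM in AAV.miS1 libraries, against 452, 730, 418 and 465 CPM in vehicle libraries. It was 3209, 7370 and 4358 CPM in StufferOnly libraries, against 358, 367 and 329 CPM in empty capsid libraries. CTSB rose after both vectors (effects 3.57 and 3.83, edgeR adjusted p = 0.00351 and 0.00760). Expressed as a percentage of CTSB, FDFT1 was 0.267 to 4.87% in AAV.miS1 libraries and 6.58 to 12.4% in vehicle libraries, and 59.8 to 62.9% in StufferOnly libraries and 80.7 to 84.0% in empty capsid libraries. FDFT1 followed CTSB closely in the StufferOnly and empty capsid libraries and did not in Study 1.

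The programs that made the counts treat such neighbours differently. Study 1 tables come from STAR, which leaves out reads that overlap several genes on the strands it considers, and the StufferOnly and empty capsid tables from featureCounts with an option that lets 1 read add to every gene it overlaps. In Study 1 the unstranded STAR column kept 42021 of the 136508 CTSB counts of the reverse-strand column, 3253 of 7562 TGM2 counts and 1132 of 4403 HVCN1 counts. Counts that the reverse-strand column holds and the unstranded column lacks come, by STAR's rule, from reads that also overlap a gene on the other strand. Reads of FDFT1, RPRD1B and TCTN1 themselves and reads of their raised neighbours cannot be told apart in the featureCounts counts of Study 2. Another Study 2 group, intmiS1, had replicates 1 and 2 counted with STAR and replicate 3 with featureCounts. Scaled over all 22 libraries, FDFT1 was 45.5, 57.3 and 278 CPM in these replicates. RPRD1B was 48.9, 50.5 and 51.2 CPM there, and TCTN1 20.7, 20.8 and 30.5 CPM. Their neighbours were low in these replicates, TGM2 at 4.65, 12.1 and 13.4 CPM and HVCN1 at 6.13, 8.77 and 16.3 CPM. On the same scaling TGM2 was 209, 272 and 209 CPM in StufferOnly libraries, and HVCN1 183, 280 and 238 CPM. The intmiS1 replicates therefore cannot show what a raised neighbour adds to RPRD1B or TCTN1.

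RPRD1B was lowest 35.6, median 44.2 and highest 51.6 CPM in AAV.miS1 libraries, against 40.6, 28.8, 43.0 and 39.4 CPM in vehicle libraries. It was 147, 203 and 152 CPM in StufferOnly libraries, against 44.8, 49.6 and 42.2 CPM in empty capsid libraries. The Study 1 groups overlapped and the StufferOnly libraries stood apart, with effects of 0.12 (SE 0.15, edgeR adjusted p = 0.554) and 1.88 (SE 0.17, adjusted p = 0.000112) and a difference of −1.75 (−2.23 to −1.28, adjusted p = 0.00692). TGM2 had effects of 4.49 and 4.77 (edgeR adjusted p = 0.00305 and 0.00424), and RPRD1B lay at 67.6 to 70.7% of TGM2 in StufferOnly libraries and 401 to 1020% in empty capsid libraries.

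TCTN1 was lowest 16.9, median 22.4 and highest 31.1 CPM in AAV.miS1 libraries, against 18.8, 57.7, 20.4 and 25.3 CPM in vehicle libraries, with 6 reads behind the value of vehicle replicate 2. It was 141, 221 and 185 CPM in StufferOnly libraries, against 29.1, 28.4 and 32.4 CPM in empty capsid libraries. The Study 1 groups overlapped and the Study 2 groups did not, with effects of −0.06 (SE 0.24, edgeR adjusted p = 0.922) and 2.602 (SE 0.28, adjusted p = 0.000369) and a difference of −2.66 (−3.42 to −1.89, adjusted p = 0.00934). HVCN1 had effects of 4.26 and 4.14 (edgeR adjusted p = 0.00264 and 0.00299), and TCTN1 lay at 73.8 to 74.6% of HVCN1 in StufferOnly libraries and 208 to 220% in empty capsid libraries.

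The called differences held to different degrees. FDFT1 was called under every alternative that tested it apart from the fit over all 22 libraries, where the edgeR adjusted p of all 3 genes was 0.715 with differences of −3.58, −1.70 and −2.62. RPRD1B was lost without empty capsid replicate 1 or 3 (edgeR adjusted p = 0.0551 and 0.0537), and TCTN1 without vehicle replicate 4, StufferOnly replicate 2 or any 1 empty capsid library (adjusted p 0.0511 to 0.0785).

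**Figure D4:**
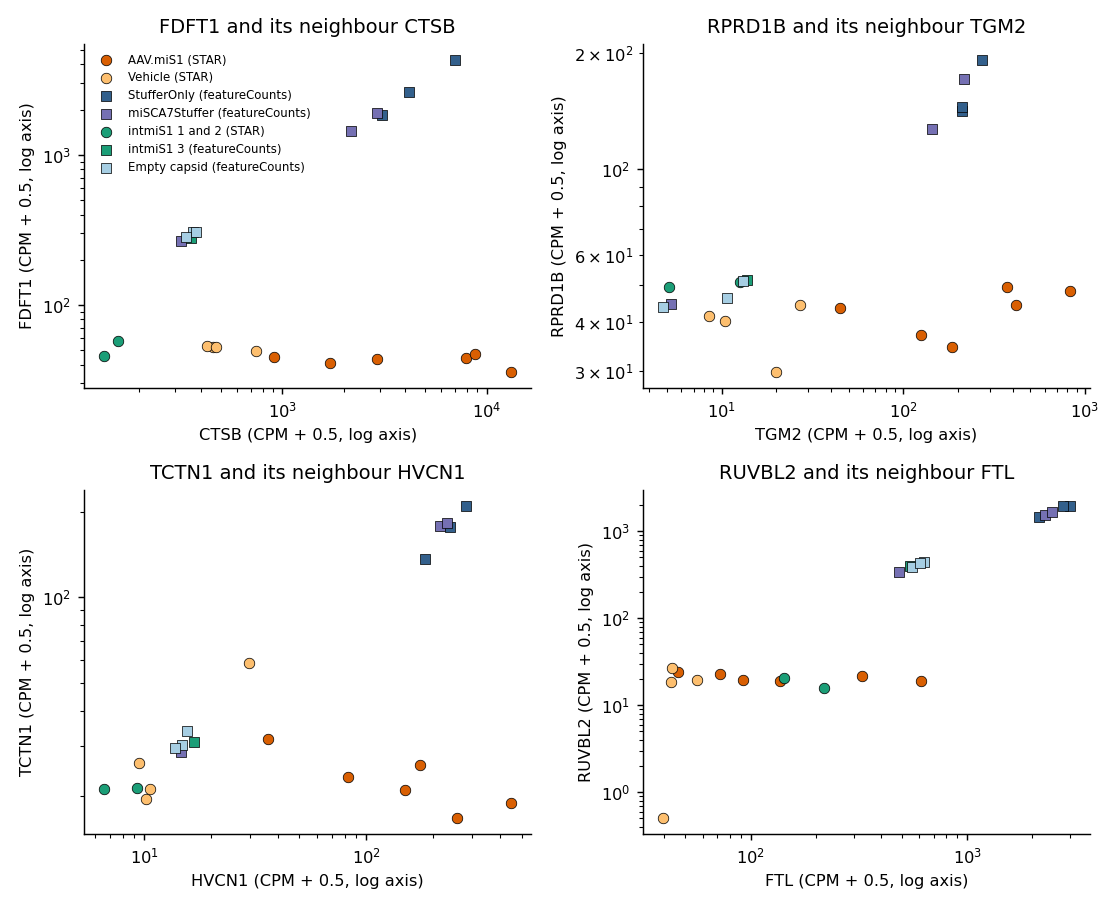
Each point is 1 of the 22 libraries of the nuclei, with the level of the neighbouring gene on the horizontal axis and that of FDFT1, RPRD1B, TCTN1 or RUVBL2 on the vertical axis, both as CPM plus 0.5 on log axes after scaling over all 22 libraries. Circles are libraries counted with STAR and squares libraries counted with featureCounts. FDFT1 climbs with CTSB among the squares and stays between 35.1 and 57.3 CPM among the circles.

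RUVBL2, an ATPase of chromatin complexes that lies beside the ferritin light chain gene FTL, came next by p and missed the threshold of the edgeR fit. It was lowest 18.9, median 20.7 and highest 23.6 CPM in AAV.miS1 libraries, against 18.0, 0, 25.6 and 18.7 CPM in vehicle libraries. It was 1522, 2056 and 2062 CPM in StufferOnly libraries, against 384, 430 and 415 CPM in empty capsid libraries. The empty capsid level was 26.3 times the vehicle level, and RUVBL2 lay at 65.3 to 70.5% of FTL in StufferOnly libraries and 69.6 to 70.6% in empty capsid libraries. The unstranded column kept all of the 5340 FTL counts, and the FTL level was itself 13.1 times higher in empty capsid than in vehicle libraries. The difference of RUVBL2 was −2.09 (−2.81 to −1.37, edgeR adjusted p = 0.0560), and without vehicle replicate 2 it was −2.18 (adjusted p = 0.00148). RUVBL2 was called with DESeq2 (adjusted p = 6.96e-08), limma voom (adjusted p = 0.000661), separate edgeR fits per study (adjusted p = 1.29e-06), TMM within each study (adjusted p = 0.0452), total counts (adjusted p = 0.0275) and the unstranded column (adjusted p = 0.0475).

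More widely, 137 of the genes with a difference below 0 and an unadjusted p under 0.05 had a place on that annotation, and 47 of them (34.3%) had a neighbour called higher after StufferOnly. The same held for 16 of 125 such genes with a difference above 0 (12.8%), for 2008 of all 12327 genes placed (16.3%) and for 364 of 1203 shared genes (30.3%). The genes were chosen, and their neighbours called, from the same StufferOnly libraries. A read counted for both members of a pair enters both, so these shares are description alone. Control levels differed over 2-fold between vehicle and empty capsid for 1420 of 13358 genes (10.6%). When only genes with control levels within 2-fold were tested, 2 differences were called, RPRD1B and TCTN1, since FDFT1 was then not tested.

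On the other side of 0 edgeR called no difference among 142 genes with an unadjusted p under 0.05, and the leading 4 were TAPBPL, TNFRSF12A, PTER and GPR171. DESeq2 called 4 differences above 0, among them TAPBPL, TNFRSF12A and PTER (adjusted p 0.0148, 0.0313 and 0.0177), and separate edgeR fits per study called 8, among them all 4 (adjusted p 0.000233, 0.00169, 0.0116 and 0.0116). TNFRSF12A, a receptor of the TNF family, was lowest 4.77, median 25.2 and highest 35.6 CPM in AAV.miS1 libraries, against 0.836, 0, 1.10 and 1.31 CPM in vehicle libraries. It was 38.4, 37.1 and 39.9 CPM in StufferOnly libraries, against 26.2, 28.8 and 26.03 CPM in empty capsid libraries. The groups did not overlap in either study, and the empty capsid level was 33.2 times the vehicle level. The effects were 4.27 (SE 0.66, edgeR adjusted p = 0.00279) and 0.51 (SE 0.49, adjusted p = 0.497), with a difference of 3.76 (1.98 to 5.53, adjusted p = 0.541).

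TNFRSF12A lies beside HCFC1R1. The unstranded STAR column kept 0 of the 464 TNFRSF12A counts in Study 1, and TNFRSF12A lay at 73.5 to 76.0% of HCFC1R1 in all 6 StufferOnly and empty capsid libraries. TAPBPL, an MHC class I editing chaperone, lies beside the synaptic gene VAMP1 and was at 33.1 times the vehicle level in empty capsid libraries, with effects of 1.68 (SE 0.34, edgeR adjusted p = 0.00496) and −0.67 (SE 0.34, adjusted p = 0.218) and a difference of 2.35 (1.32 to 3.38, adjusted p = 0.389). PTER beside C1QL3 was at 107 times the vehicle level in empty capsid libraries and had effects of 1.67 (SE 0.56, edgeR adjusted p = 0.0478) and −1.38 (SE 0.42, adjusted p = 0.0457). With the unstranded column for Study 1 the PTER effects were −0.62 and −1.42 and the difference 0.80.

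GPR171, a receptor of T cells that lies beside MED12L, had no read in vehicle libraries and was at least 10.5-fold higher in AAV.miS1 libraries. It was 3.05, 4.30 and 5.41 CPM in StufferOnly libraries, against 3.54, 3.46 and 3.40 CPM in empty capsid libraries, which overlapped. With the unstranded column for Study 1 the GPR171 effects were 0.71 and 0.26 and the difference 0.45.

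The lists of projection, inhibitory and general neurons had medians below 0 after both vectors. None of 16 projection neuron genes of the deep nuclei was called in either effect (medians −0.89 and −0.88), nor any of 10 inhibitory neuron genes (−0.94 and −0.77). Of 29 general neuron genes 3 fell after AAV.miS1 and none was called after StufferOnly (−0.96 and −0.79). The interval of the difference reached beyond 1 log2 unit for all 16 projection neuron genes and all 29 general neuron genes.

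Markers of granule cells, the small neurons of the cerebellar cortex, had medians of opposite sign after the vectors. Of 20 granule cell genes 4 fell after AAV.miS1 and none was called after StufferOnly, with median effects of −1.50 and 0.20, and the difference was below 0 for 19 of 20 with a median of −1.63. An unadjusted p under 0.05 was reached by 6 of them, and edgeR called none. Summed over the 20 genes, levels were lowest 357, median 771 and highest 2325 CPM in AAV.miS1 libraries, against 802, 2635 and 3249 CPM in vehicle libraries, and 521, 602 and 1241 CPM in StufferOnly libraries, against 825, 870 and 928 CPM in empty capsid libraries. The vehicle animals thus spread widely and mostly lay above every empty capsid animal. Any part of granule cell RNA in the controls in the difference was not tested.

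BARHL1, a transcription factor of granule cell precursors, had the smallest p of the list. It was lowest 0.239, median 2.22 and highest 4.10 CPM in AAV.miS1 libraries, against 17.1, 9.61, 15.2 and 2.96 CPM in vehicle libraries. It was 2.34, 9.24 and 6.42 CPM in StufferOnly libraries, against 3.02, 2.75 and 3.08 CPM in empty capsid libraries. Vehicle replicate 4 lay within the AAV.miS1 range and the Study 2 groups overlapped, with effects of −2.46 (SE 0.58, edgeR adjusted p = 0.0103) and 1.02 (SE 0.61, adjusted p = 0.284) and a difference of −3.47 (−5.29 to −1.66, adjusted p = 0.761). Separate edgeR fits per study called the BARHL1 difference (−3.45, adjusted p = 0.00657), and DESeq2 and limma voom did not (adjusted p = 0.128 and 0.376). GABRA6, the granule cell GABA receptor subunit, was lowest 0.717, median 2.08 and highest 42.0 CPM in AAV.miS1 libraries, against 51.0, 28.8, 87.4 and 1.64 CPM in vehicle libraries. It was 0.642, 31.7 and 1.48 CPM in StufferOnly libraries, against 2.04, 0.314 and 1.58 CPM in empty capsid libraries. Single libraries of every group but the empty capsid stood far from the rest, and neither effect was called (edgeR adjusted p = 0.182 and 0.221).

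Of 25 Purkinje cell genes 7 fell after AAV.miS1, beside 2.89% of all genes, and none was called after StufferOnly. The list had medians of −1.07 and −0.57 and a median difference of −0.23. SLC1A6, the Purkinje glutamate transporter, had effects of −2.37 (edgeR adjusted p = 0.00679) and −0.53 (adjusted p = 0.538), and the calcium-binding protein gene CALB1 −2.11 (adjusted p = 0.00892) and −1.14 (adjusted p = 0.205). Neither difference was called. ITPR1, the calcium channel of the endoplasmic reticulum, was lowest 117, median 153 and highest 208 CPM in AAV.miS1 libraries, against 314, 298, 375 and 116 CPM in vehicle libraries. It was 146, 147 and 135 CPM in StufferOnly libraries, against 91.9, 124 and 103 CPM in empty capsid libraries.

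Vehicle replicate 4 lay below all AAV.miS1 libraries for ITPR1 and the other vehicle libraries above them, and the StufferOnly libraries lay above the empty capsid libraries. The effects were −0.81 (SE 0.25, edgeR adjusted p = 0.0366) and 0.42 (SE 0.31, adjusted p = 0.381), and the difference of −1.23 (−2.10 to −0.37) was not called (adjusted p = 1.0). The 25 Purkinje genes summed to 559, 1197 and 1665 CPM at the lowest, median and highest AAV.miS1 library, against 1778, 2020 and 2580 CPM in vehicle libraries, and to 957, 1074 and 1227 CPM in StufferOnly libraries, against 1575, 1664 and 1738 CPM in empty capsid libraries. The summed levels of vector libraries lay below their controls in both studies.

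**Figure D5:**
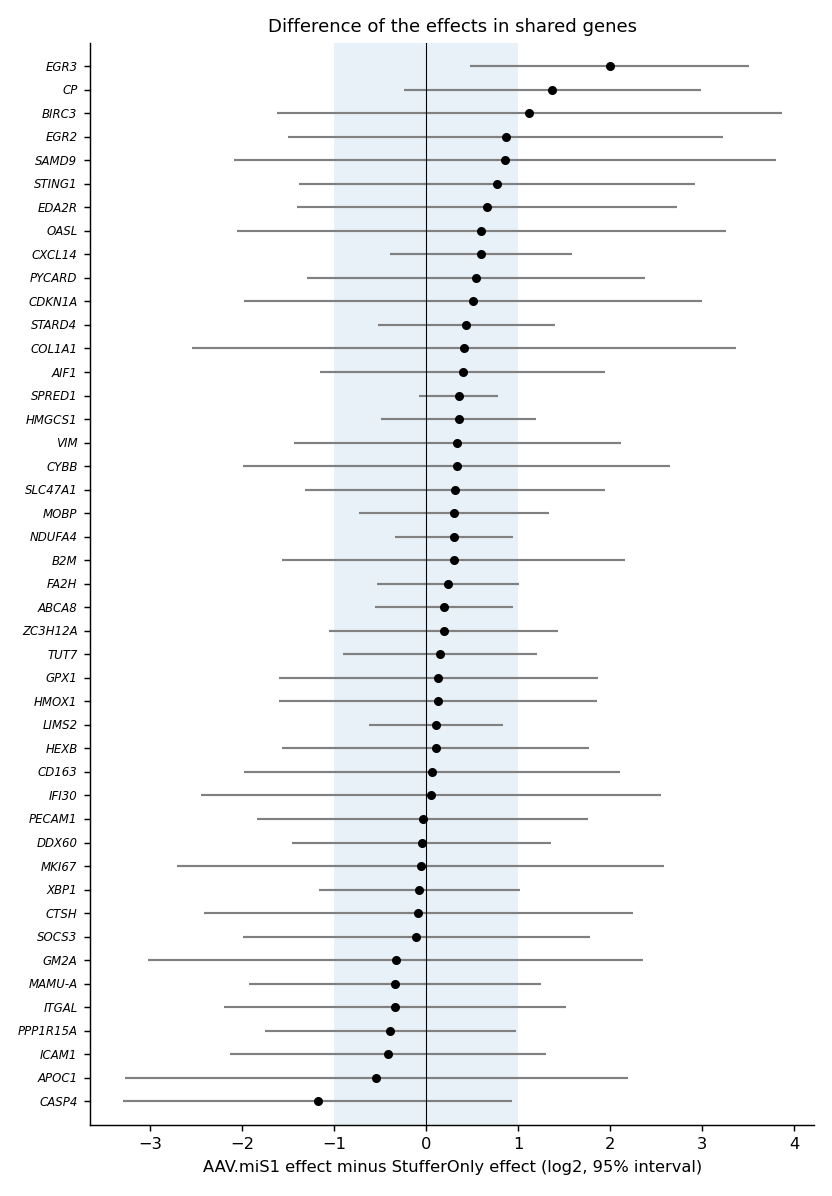
Each point is the AAV.miS1 effect minus the StufferOnly effect of 1 of 45 shared genes, with its 95% interval in log2; genes without reads in some group or with an interval over 6 log2 units wide are not drawn, and the band marks 1 log2 unit on either side of 0. The intervals of 44 genes hold 0, and those of 4 lie within the band.

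The plot of intervals shows how far these libraries can place the effects of shared genes side by side. SPRED1, with a difference of 0.35 (−0.07 to 0.78), and NDUFA4, a subunit of the respiratory chain with 0.30 (−0.34 to 0.95), had short intervals. IFI30 with 0.05 (−2.45 to 2.56) and PECAM1, an adhesion molecule of vessels and leukocytes with −0.04 (−1.84 to 1.76), had differences near 0 and wide intervals. EGR3 was the gene whose interval did not hold 0. Of 30 respiratory chain genes 1, NDUFA4, fell after each vector.

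Some genes could be compared in 1 study only. Besides the 13375 genes tested, 6653 passed the count filter in Study 2 alone and 8 in Study 1 alone. In a fit of Study 2 alone 1161 of the 6653 were called after StufferOnly, 879 higher and 282 lower, and 222 of those called had no count in any Study 1 library. With Study 2 thinned to the median Study 1 total, genes that only 1 study could test numbered 1666.

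The most abundant of them was CDR1, the gene opposite a circular RNA that is plentiful in neurons. It was 3217, 3736 and 2746 CPM in StufferOnly libraries, against 6137, 6472 and 5995 CPM in empty capsid libraries, an effect of −0.94 (SE 0.18, edgeR adjusted p = 0.00649) with no overlap. In Study 1 it had 20 counts over the AAV.miS1 libraries and 13 over the vehicle libraries, and reads of the strand opposite CDR1 cannot be told apart in the Study 2 counts. ATP6V1F, a subunit of the proton pump of lysosomes, was 130, 149 and 149 CPM in StufferOnly libraries, against 60.5, 60.5 and 59.7 CPM in empty capsid libraries (effect 1.25, SE 0.10, edgeR adjusted p = 0.000110), and had 26 counts over the AAV.miS1 libraries and 1 over the vehicle libraries. Whether AAV.miS1 moves these genes was not measurable at the depth and counting of Study 1.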

How the data were processed

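Total RNA of the deep cerebellar nuclei was made into directional libraries after ribosomal RNA depletion, per the labels' protocols. The authors deposited tables of raw read counts by gene. STAR 2.6.0c and DESeq2 (no version) are named in the submitters' processing notes. Study 1 libraries came as STAR gene-count tables, of which the reverse-strand column was used for genes and the unstranded column for vector reads. Vector RPM of Study 1 thus divide unstranded vector reads by reverse-strand gene counts. The Study 2 libraries compared here came as featureCounts tables, in which, per the file headers, 1 read could add to every gene it overlapped. Those headers name no strand option. The genome build was not given in the sources used here. No coordinates are reported. In Study 2 libraries a count of 2 was 2.26 to 2.85 times as frequent as a count of 1, against 0.438 to 0.639 times in Study 1, and halved counts were tried as an alternative added after seeing the data.

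Counts of all 16 libraries were fitted together in edgeR 4.0.16 (R 4.3.3) by quasi-likelihood with 1 mean per group and TMM scaling, with Benjamini-Hochberg adjusted p-values over all genes tested and calls at 0.05. Genes had to pass filterByExpr (minimum count 10, minimum total 15) within each study. CPM are TMM-scaled, standard errors and 95% intervals were taken from the F statistic, and a log2 fold change is tested over control. Of the 34847 identifiers 24009 had a symbol. The method was tested on simulated data. Alternatives were limma 3.58.1, DESeq2 1.42.0, other scalings, filters, strand columns, depths, library sets and left-out libraries; the unstranded column without vehicle replicate 2, and a test limited to genes with control levels within 2-fold, were also added after seeing the data. Vector features were left out of the tests.

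Members and lists were chosen with earlier results of these data known, so no list is independent of the data. Named genes were ATXN1 and ATXN7, up to 10 called differences a side or else the 4 smallest p, the 12 shared higher and 6 shared lower genes with the largest smaller effect, 2 members per list and the 6 most abundant called genes that Study 2 alone could test. SREBF2, ETV1, DUSP6, SLC1A6, CALB1 and the neighbouring genes were named after their values were seen. Replicate numbers do not pair animals: same-numbered StufferOnly and empty capsid libraries, which come from different animals, had correlated deviations of 0.00419, 0.0420 and −0.0933.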

Additional observations from a re-analysis of the deposited data

Results flagged for a closer look

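Among 28 named genes, the vector reads and the library depth, 60 groups of Study 1 libraries were searched for a library that stood far from the rest. Of these, 14 held one, 8 in vehicle and 6 in AAV.miS1. The rule's chance rate of about 1 in 20 is for independent, normally distributed values and does not apply to these skewed CPM. A gene with reads in only 1 vehicle library is always flagged, and many flags share a library. In AAV.miS1 replicate 1, ATXN1 was 88.4 CPM, MMP9 671 CPM, PLA2G2D 1171 CPM, ACP5 392 CPM and CR1 205 CPM, each above the other AAV.miS1 libraries. Vector reads stood out in AAV.miS1 replicate 2, at 586 RPM. Vehicle replicate 2, the library with 87741 counts, stood above the other vehicle libraries in TCTN1 (57.7 CPM), CDH1 (9.61 CPM), PLA2G2D (38.4 CPM), CHIT1 (221 CPM), JCHAIN (38.4 CPM) and APOC1 (28.8 CPM), on 6, 1, 4, 23, 4 and 3 reads. MMP9 was 0.276 CPM in vehicle replicate 3 and CR1 0.657 CPM in vehicle replicate 4, where the other vehicle libraries had no read.

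The test of the difference itself called FDFT1 (−3.63 log2), RPRD1B (−1.75) and TCTN1 (−2.66), as described with their neighbours. In these values the vector cannot be told apart from the study or the counting program.

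These genes stood above the empty capsid libraries in 2 of the 3 miSCA7Stuffer libraries, which no comparison here used and which were also counted with featureCounts. After scaling over all 22 libraries, FDFT1 was 1434 and 1906 CPM, RPRD1B 170.5 and 126.3 CPM and TCTN1 178 and 181 CPM in miSCA7Stuffer replicates 2 and 3. In miSCA7Stuffer replicate 1 they were 267, 44.0 and 28.2 CPM, against 285 to 307, 43.5 to 50.8 and 29.1 to 33.4 CPM in empty capsid libraries.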

How the results depend on the processing

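The counts are the calls at an adjusted p under 0.05 for the difference (3 as reported), the AAV.miS1 effect (2546), the StufferOnly effect (1605) and both effects in the same direction (1294). DESeq2 called 12 differences. Limma voom gave 6, 4541, 6980 and 3723, and separate edgeR fits per study 23 differences with 1008 AAV.miS1 and 5469 StufferOnly calls. The fit over all 22 libraries called 0 differences with edgeR, where 303 had an unadjusted p under 0.05. With the share of unmapped reads as a covariate the 3 last counts were 891, 2485 and 769, and with only Study 1 libraries over 15% unmapped the 4 counts were 183, 129, 4975 and 121. With the replicate block in Study 2, whose numbers do not pair animals, StufferOnly calls were 981 and shared calls 821, while the difference kept a count of 3. Leaving out 1 library gave 1 to 5 differences, 1124 to 4438 AAV.miS1 calls, 419 to 2767 StufferOnly calls, 379 to 1935 shared calls, 6319 to 7539 genes that 1 study could not test (6661 as reported) and −0.64 to −0.45 for the ATXN1 difference. Thinning Study 2 left 1666 such genes. Scaling by total counts moved the median difference of all genes to −0.11, against 0.03, and AAV.miS1 calls to 1846 higher and 552 lower. Over 98 genes and all alternatives, single-gene results kept their direction and side of the threshold in 2746 of 3114 cases, lost the call in 345 and gained it in 19. Differences that were not called changed sign for ATXN7 (0.004 with Study 2 thinned), KCNAB3 (0.24) and DES (−0.71) with only libraries over 15% unmapped, and PRLR (0.80 without vehicle replicate 4, lowest −0.90 with another library left out). In each case the cause was not tested.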
